A study of Mus musculus with 9 samples.

Results

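Liver expression of 10 genes that sense bacterial products was examined in mice long after early-life pulsed antibiotic treatment (PAT). The genes were Lbp, Cd14, Ly96, Tlr4, Tlr2, Tlr5, Tlr9, Nod1, Pglyrp2 and Myd88. They were chosen by name for their role, with earlier results of these data known. All 10 were measured among the 18193 genes with a probe set of 1 gene symbol. Each gene was read at its brightest probe set, the one with the highest mean over all arrays, and was marked as dim when fewer than 3 arrays had a log2 value over 6. The 4 Toll-like receptors were dim, and the other 6 genes were not.

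The 9 liver arrays came from 3 control, 3 amoxicillin and 3 tylosin mice, all female and labelled C57BL6J. Amoxicillin (25 mg/kg/day, 0.167 mg/ml) or tylosin (50 mg/kg/day, 0.333 mg/ml) was given in drinking water in 3 courses, on days 10 to 15, 28 to 31 and 37 to 40 of life, whereas control mice received no antibiotic. All groups were then fed high-fat chow, so the controls are high-fat-fed animals too. Livers were taken at 22 weeks by the protocol and at 24 weeks by the sample labels. Each litter stayed within 1 treatment group and its own cage, and the litter of each array is not given in the sources used here, so litter or cage and treatment cannot be told apart. The p-values therefore measure the spread between these samples.

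The liver receives blood from the gut through the portal vein and meets bacterial products there. Lipopolysaccharide (LPS) is bound in plasma by LPS-binding protein, passed to Cd14, and presented to Tlr4 in its complex with Ly96 (MD-2). Tlr2 recognises bacterial lipoproteins, Tlr5 flagellin and Tlr9 unmethylated CpG DNA, and these 3 receptors and Tlr4 signal through the adaptor Myd88 to NF-kappaB. Nod1 senses a peptidoglycan fragment inside the cell, and Pglyrp2 is a secreted amidase that cuts peptidoglycan. Hepatocytes secrete Lbp and Pglyrp2, and Kupffer cells, the resident macrophages of the liver, carry Cd14 and Toll-like receptors.

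RefSeq promoter windows on GRCm38.p6, from 250 bases before to 50 bases after a transcription start, were matched for 6 of the 10 genes, in 7 windows. Cd14, Lbp, Ly96 and Tlr4 had no window here and were not searched for motifs. The 2 windows below belong to Tlr2, the gene with the widest range over the arrays, and to Pglyrp2, a secreted product of hepatocytes. Capitals mark matches to the NF-kappaB consensus in Tlr2 and to the C/EBP pair TTGCNNAA in Pglyrp2. Both are written 5′ to 3′ along the gene.
Tlr2, chr3:83841559-83841858, minus strand: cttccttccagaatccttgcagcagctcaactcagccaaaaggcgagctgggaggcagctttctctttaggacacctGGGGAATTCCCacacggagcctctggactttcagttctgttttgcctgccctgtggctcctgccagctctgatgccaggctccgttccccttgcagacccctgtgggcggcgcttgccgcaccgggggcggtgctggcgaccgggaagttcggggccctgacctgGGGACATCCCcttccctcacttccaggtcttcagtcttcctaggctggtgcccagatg
Pglyrp2, chr17:32420926-32421225, minus strand: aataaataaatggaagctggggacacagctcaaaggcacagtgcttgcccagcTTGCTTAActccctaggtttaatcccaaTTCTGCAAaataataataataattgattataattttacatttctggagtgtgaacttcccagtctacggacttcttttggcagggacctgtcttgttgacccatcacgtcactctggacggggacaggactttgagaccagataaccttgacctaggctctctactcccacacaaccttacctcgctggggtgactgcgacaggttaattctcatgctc

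Searched on both strands, the Tlr2 window held overlapping NF-kappaB matches that began at positions -173 and -172 from the start, and a further one at position -8. Among 32851 promoter windows of this length, 4.51% held an NF-kappaB match. The Pglyrp2 window held C/EBP matches that began at positions -197 and -169, a motif present in 10.8% of windows. Among the other windows, 1 Nod1 window held a C/EBP match, the Tlr9 window held 2 matches to the PU.1 motif GAGGAAG (in 13.6% of windows) and the Myd88 window held 2 overlapping matches to the letters TATAAA (also in 13.6%). The second Nod1 window and the Tlr5 window held none of these motifs. The matches describe letters in the windows and are not evidence of binding.

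Some facts of the whole series bear on these genes. Hepatocyte markers were at a mean log2 level of 14.01 to 14.07 in all 9 arrays. Intestinal mucosa markers averaged 6.82 in amoxicillin replicate 1 and 6.61 in tylosin replicate 2, against 4.47 to 5.22 in the other 7 arrays. Of these 10 markers 6 were dim. Reg3b was also at 7.75 in tylosin replicate 1, against 3.07 to 3.15 in controls, whereas Fabp2 was at 11.03 and 11.13 in the 2 arrays, against 11.04 to 11.40 in controls. Smooth muscle markers averaged 6.16 and 6.49 in the same 2 arrays, against 4.25 to 4.62 in the other 7. In tylosin replicate 3, the Kupffer cell lectin Clec4f was at 7.50 and the scavenger receptor Marco at 10.95, against 9.20 to 9.66 and 5.81 to 8.67 in the other 8 arrays. Of the Kupffer cell list, Clec4f, Vsig4 (9.40) and Folr2 (6.89) were lowest in that array, and Adgre1 (9.59), Cd5l (11.95) and Timd4 (7.29) were highest. The mean of the 10 genes of the list was 9.18 there, within the range of the controls (8.79 to 9.32). As a sign of RNA integrity, the 3′ minus 5′ log2 difference of Actb was 1.29 to 1.40 among controls, 1.39 to 1.57 after amoxicillin and 1.21 to 1.73 after tylosin.

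Cd14 was the 1 gene of the 10 to be called, at the unadjusted P under 0.01 and absolute log2 fold change over 0.5 of the study's methods, and it was higher with tylosin against both other groups. Its log2 level was 6.23, 6.73 and 6.66 in control replicates 1 to 3, 6.71, 6.71 and 6.19 with amoxicillin, and 7.43, 6.81 and 7.35 with tylosin. All 3 tylosin arrays were above all 6 other arrays, and tylosin replicate 2 was the nearest to them. The log2 fold change of tylosin against control was 0.66 (SE 0.20, 95% interval 0.21 to 1.10), a 1.58-fold difference with an adjusted p of 0.22 by limma. Tylosin against amoxicillin also gave 0.66 (adjusted p = 1 by limma). Amoxicillin and control arrays overlapped, with a log2 fold change of -0.001 and a 95% interval of -0.45 to 0.44.

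The call of Cd14 lay close to its threshold. It was lost against control in 6 of the 9 fits that left out 1 array (control replicate 1 or 3, amoxicillin replicate 1 or 2, tylosin replicate 1 or 3), with log2 fold changes of 0.50 to 0.85 over all 9 fits. Against amoxicillin it was lost in 5 of 9 (control replicate 2 or 3, amoxicillin replicate 3, tylosin replicate 1 or 3), with 0.48 to 0.85. Without amoxicillin replicate 1 and tylosin replicate 2, the log2 fold change was 0.85 against control and 0.94 against amoxicillin, both called. Without tylosin replicate 3, it was 0.58 against each, and neither was called. The call against control was also lost with a filter on dim probe sets, quantile normalization (0.55) or array weights (0.59), and the call against amoxicillin with the dim filter or with only the 2 groups fitted.

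Markers of the cells that carry Cd14 were read beside it. All 10 Kupffer cell markers were measured and none was dim. Their mean log2 level was 8.79 to 9.32 in controls, 8.75 to 9.39 after amoxicillin and 8.96 to 9.22 after tylosin, so the groups overlapped. In every comparison 0 of 10 was called. Over all probe sets, 1.35% were called with amoxicillin against control, 1.42% with tylosin against control and 0.0933% between the antibiotics. Of 8 monocyte and neutrophil markers measured, 5 were dim, among them Ccr2, Itgam, S100a8 and S100a9, and the mean of the 8 was 5.46 to 5.62, 5.21 to 5.68 and 5.38 to 6.04. In whole liver, a change in the number of Cd14-bearing cells and a change in the RNA per cell cannot be told apart, and the part of these cells in the Cd14 result was not tested.

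**Figure D1:**
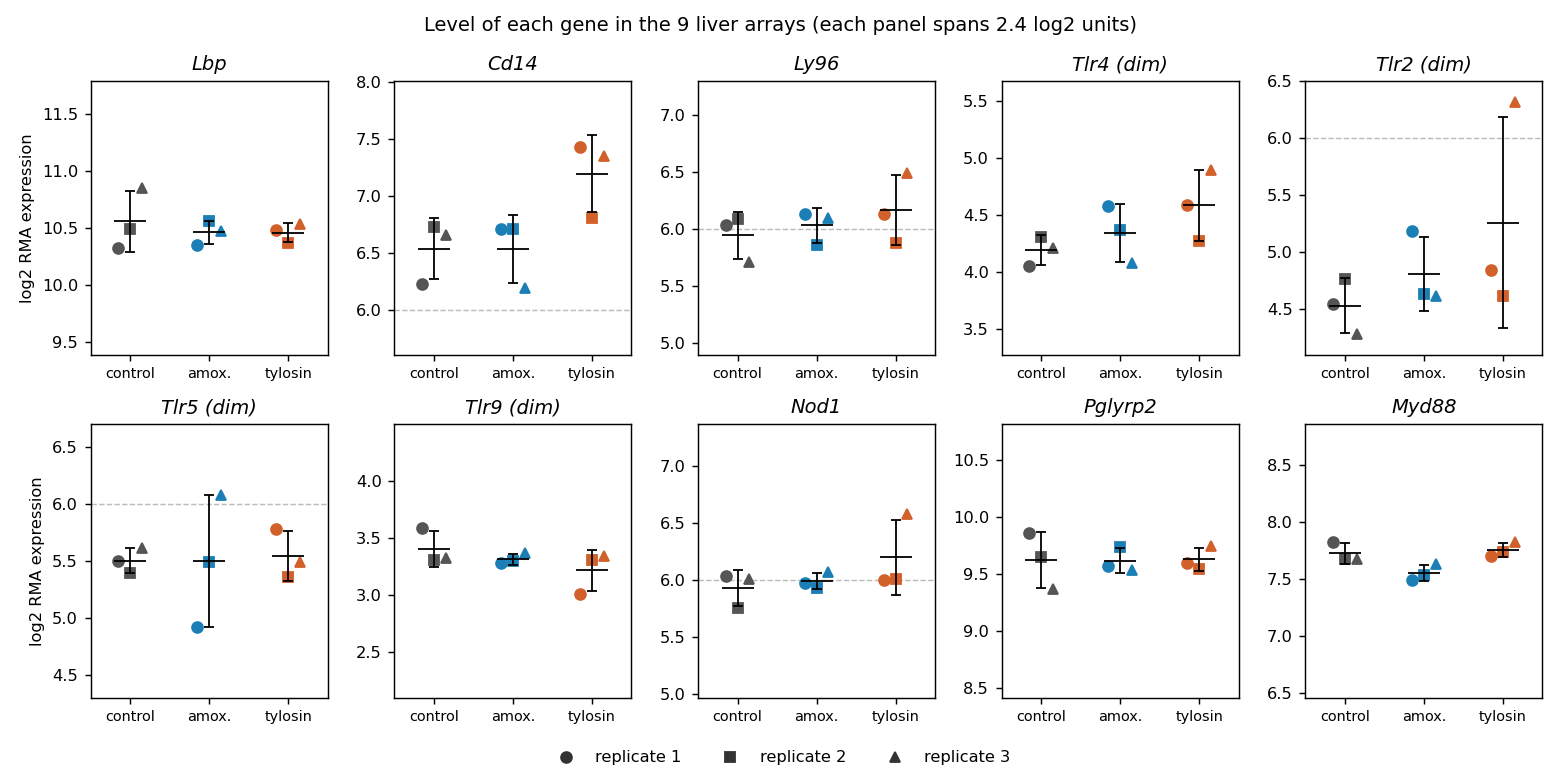
Log2 RMA expression of the 10 genes by group, 1 point per array (circle, square and triangle for replicates 1 to 3), with the mean and SD of 3 arrays in black and the dashed line at the dim limit of 6. The 3 tylosin points of Cd14 lie above its 6 other points, and the tylosin point at 6.32 stands apart in Tlr2.

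Lbp, the plasma protein that carries LPS, did not pass the test in any comparison. Its log2 level was 10.32, 10.49 and 10.85 in control replicates 1 to 3, 10.35, 10.56 and 10.47 with amoxicillin, and 10.48, 10.36 and 10.53 with tylosin. Control replicate 3 was the highest array and control replicate 1 the lowest, so that both antibiotic groups lay within the control range. The log2 fold change was -0.09 (95% interval -0.38 to 0.19) with amoxicillin, -0.10 (-0.39 to 0.19) with tylosin, and -0.002 (-0.29 to 0.29) between the antibiotics. A second probe set of Lbp, at 5.54 to 6.38, was also highest in control replicate 3, and gave -0.23, -0.05 and 0.18 in the same order. That array was also the highest for the acute phase genes Saa1 (11.55, against 7.77 to 11.01 in the others) and Lcn2 (9.20, against 6.24 to 8.64). The next highest array for both was tylosin replicate 3, where Lbp was at 10.53. A link of these genes to the Lbp values was not tested.

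Ly96, the LPS-binding partner of Tlr4, was close to the dim limit. Its log2 level was 6.03, 6.09 and 5.71 in control replicates 1 to 3, 6.13, 5.86 and 6.10 with amoxicillin, and 6.13, 5.88 and 6.49 with tylosin. The groups overlapped, and the highest value was that of tylosin replicate 3. Tylosin against control gave a log2 fold change of 0.22 (95% interval -0.13 to 0.58), which was 0.06 without that array. Amoxicillin against control gave 0.09 (-0.27 to 0.44), and tylosin against amoxicillin gave 0.14 (-0.22 to 0.49).

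The 4 Toll-like receptors were dim, so their values carry more array background, and none was called in any comparison. Tlr4, the LPS receptor, was at 4.06, 4.31 and 4.21 in control replicates 1 to 3, 4.58, 4.37 and 4.08 with amoxicillin, and 4.59, 4.27 and 4.90 with tylosin. Only tylosin replicate 2 lay within the control range among the tylosin arrays. Tylosin against control gave a log2 fold change of 0.39 (95% interval 0.02 to 0.76, adjusted p = 0.31 by limma), and did not reach either threshold of a call. It became a call without tylosin replicate 2 (0.55), and was 0.24 without tylosin replicate 3. Amoxicillin against control gave 0.15 (-0.22 to 0.52) and tylosin against amoxicillin 0.24 (-0.13 to 0.61).

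The other 3 probe sets of Tlr4 did not follow the brightest one. They were at 2.59 to 4.30 and gave log2 fold changes of -0.07, -0.09 and 0.09 with tylosin against control, -0.04, -0.11 and -0.05 with amoxicillin against control, and -0.02, 0.03 and 0.14 between the antibiotics. With the mean of all 4 probe sets, tylosin against control gave 0.08. The value at the brightest probe set is thus not shared by the other probe sets of the gene.

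Tlr2, the lipoprotein receptor, had the widest range of the 10 genes, at 2.03 log2 units, and 1 array set it. Its log2 level was 4.54, 4.77 and 4.29 in control replicates 1 to 3, 5.19, 4.64 and 4.62 with amoxicillin, and 4.85, 4.61 and 6.32 with tylosin. Tylosin replicate 3 was more than 1 log2 unit above the next array, amoxicillin replicate 1, and the groups overlapped. The log2 fold change of tylosin against control was 0.73 (95% interval -0.08 to 1.54, adjusted p = 0.38 by limma), and 0.20 without tylosin replicate 3. Tylosin against amoxicillin gave 0.45 (-0.36 to 1.26) and -0.08 without that array, and amoxicillin against control gave 0.28 (-0.53 to 1.09), which was 0.09 without amoxicillin replicate 1. The Tlr2 window printed above is the 1 among the 7 that held an NF-kappaB match, and no promoter activity was measured.

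Tlr5, the flagellin receptor, varied most among the amoxicillin arrays. It was at 5.50, 5.40 and 5.62 in control replicates 1 to 3, 4.92, 5.49 and 6.08 with amoxicillin, and 5.79, 5.36 and 5.49 with tylosin. The amoxicillin group held both the lowest and the highest array, and its SD was 0.58 against 0.11 in controls and 0.22 with tylosin. The log2 fold changes were -0.01 (95% interval -0.53 to 0.52), 0.04 (-0.48 to 0.56) and 0.05 (-0.48 to 0.57) with amoxicillin, with tylosin and between the antibiotics. These intervals leave room for differences of up to about the fold threshold in either direction.

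Tlr9, the receptor of CpG DNA, was well below the dim limit in every array. It was at 3.58, 3.30 and 3.32 in control replicates 1 to 3, 3.28, 3.29 and 3.36 with amoxicillin, and 3.004, 3.30 and 3.34 with tylosin. The groups overlapped, with control replicate 1 the highest and tylosin replicate 1 the lowest. The log2 fold change was -0.09 (95% interval -0.35 to 0.16) with amoxicillin, -0.19 (-0.44 to 0.07) with tylosin, and -0.10 (-0.35 to 0.16) between them.

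**Figure D2:**
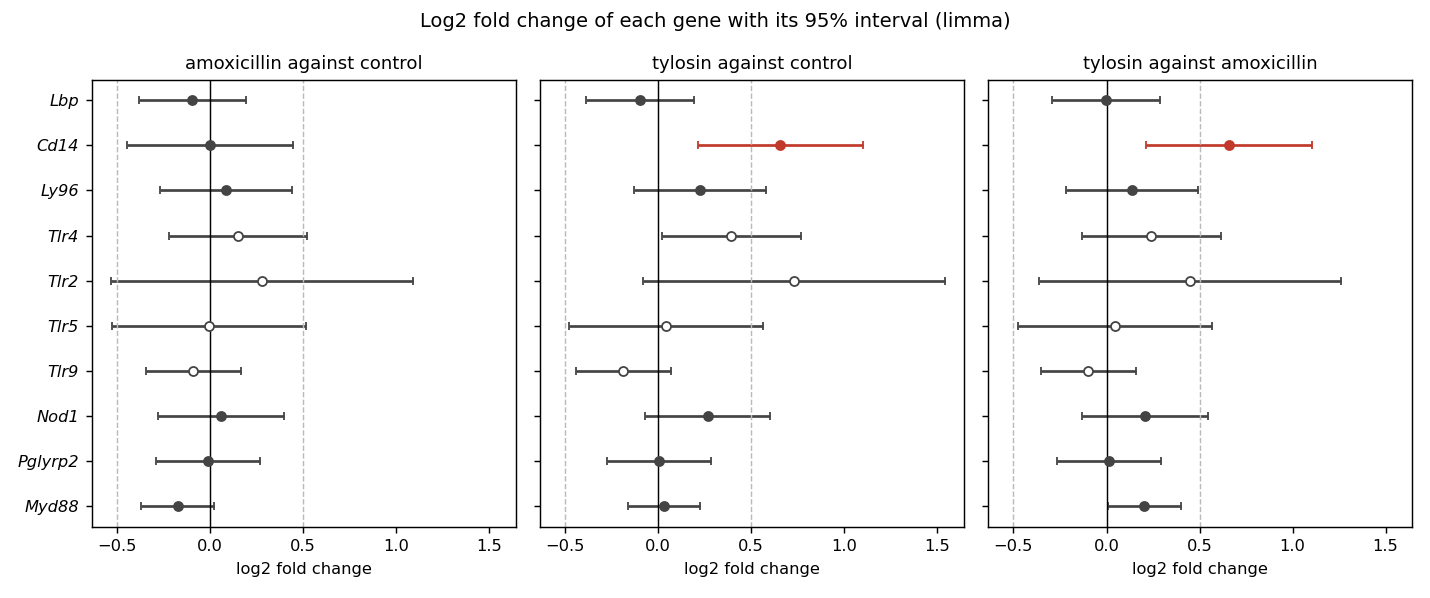
Log2 fold change of each gene (point) with its 95% interval from limma (bar) in the 3 comparisons, with open points for dim genes, red for called genes and dashed lines at the fold threshold of 0.5. Cd14 is the 1 gene in red, at 0.66 against control and against amoxicillin, and Tlr2 has the widest interval.

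The peptidoglycan genes did not pass the test in any comparison. Nod1, the intracellular sensor, was at 6.04, 5.75 and 6.01 in control replicates 1 to 3, 5.98, 5.93 and 6.07 with amoxicillin, and 6.00, 6.01 and 6.58 with tylosin. All arrays but tylosin replicate 3 lay between 5.75 and 6.07, close to the dim limit of 6, and the groups overlapped. The log2 fold change of tylosin against control was 0.26 (95% interval -0.07 to 0.60) and 0.07 without tylosin replicate 3. Amoxicillin against control gave 0.06 (-0.28 to 0.40), and tylosin against amoxicillin 0.21 (-0.13 to 0.55).

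Pglyrp2, the secreted amidase, had group means of 9.63, 9.62 and 9.63 for control, amoxicillin and tylosin. Its log2 level was 9.86, 9.65 and 9.37 in control replicates 1 to 3, 9.58, 9.74 and 9.54 with amoxicillin, and 9.60, 9.55 and 9.75 with tylosin. The control group held both the highest and the lowest array, and every antibiotic array lay between them. The log2 fold changes were -0.01 (95% interval -0.29 to 0.27) with amoxicillin, 0.004 (-0.28 to 0.28) with tylosin and 0.01 (-0.27 to 0.29) between the antibiotics, so a difference over the fold threshold of 0.5 lay outside each interval. Lbp, the other product of hepatocytes, had intervals within the same limit.

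Myd88, the adaptor of these Toll-like receptors, had the narrowest range of the 10 genes, at 0.34 log2 units. It was at 7.82, 7.67 and 7.67 in control replicates 1 to 3, 7.48, 7.53 and 7.62 with amoxicillin, and 7.70, 7.73 and 7.82 with tylosin. All 3 amoxicillin arrays were below all control arrays and all tylosin arrays, while control and tylosin arrays overlapped. Amoxicillin against control gave a log2 fold change of -0.17 (95% interval -0.37 to 0.02, adjusted p = 0.38 by limma). Tylosin against amoxicillin gave 0.20 (0.01 to 0.40, adjusted p = 1 by limma), and tylosin against control 0.03 (-0.16 to 0.22). None reached the fold threshold. Over all genes, amoxicillin arrays were all below control arrays in 11.4% and tylosin arrays all above amoxicillin arrays in 3.58%.

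Counted over the 10 genes, 0 were called with amoxicillin against control, where 1.28% of all 18193 genes were called and 0.445% were called lower. Tylosin against control gave 1 of 10, Cd14, with 1.01% of all genes called higher. Tylosin against amoxicillin gave 1 of 10, again Cd14, with 0.0715% of all genes called higher. A gene with all tylosin arrays above all control arrays, as Cd14 had, was found in 8.21% of all genes, and one with all amoxicillin arrays above all controls in 9.52%. The comparisons of tylosin share the tylosin arrays, so the 2 calls of Cd14 are not independent. The 10 genes were chosen with earlier results of these data known, so the counts are given as a description. Over all 45037 probe sets, 1.35%, 1.42% and 0.0933% were called in these 3 comparisons, and 0 passed an adjusted p of 0.05 by limma, while 6657, 6722 and 1335 had an unadjusted P under 0.05.

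The median log2 fold change of the 10 genes was -0.004 with amoxicillin against control, 0.13 with tylosin against control and 0.17 with tylosin against amoxicillin. Over all genes the same medians were -0.03, -0.01 and 0.01. The mean of the tylosin group was above that of controls in 8 of the 10 genes, with Lbp and Tlr9 the exceptions, and above that of amoxicillin in 8, with the same exceptions. Over all 18193 genes it was above that of controls in 8501 and above that of amoxicillin in 9715. Without tylosin replicate 3, the values against control fell to 0.06 for Ly96, 0.07 for Nod1 and 0.20 for Tlr2. The signs for Tlr5, Pglyrp2 and Myd88 against control turned with quantile normalization, and these 3 values were all within 0.05 of 0.

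Tylosin replicate 3 was the highest of the 9 arrays for 4 of the 10 genes, Ly96, Tlr4, Tlr2 and Nod1. Over all genes it was the highest in 12.9%. Against the control mean, the median of the 10 genes in this array was 0.33, and Tlr2 was 1.79 above. The remaining highest arrays were control replicate 1 for Tlr9, Pglyrp2 and Myd88, control replicate 3 for Lbp, amoxicillin replicate 3 for Tlr5 and tylosin replicate 1 for Cd14. Tylosin replicate 3 also had the highest mean of the 8 monocyte and neutrophil markers, at 6.04. Of the Kupffer cell list, it had the lowest Clec4f, Vsig4 and Folr2 and the highest Adgre1, Cd5l and Timd4. The part of these markers in the values of the 10 genes was not tested.

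**Figure D3:**
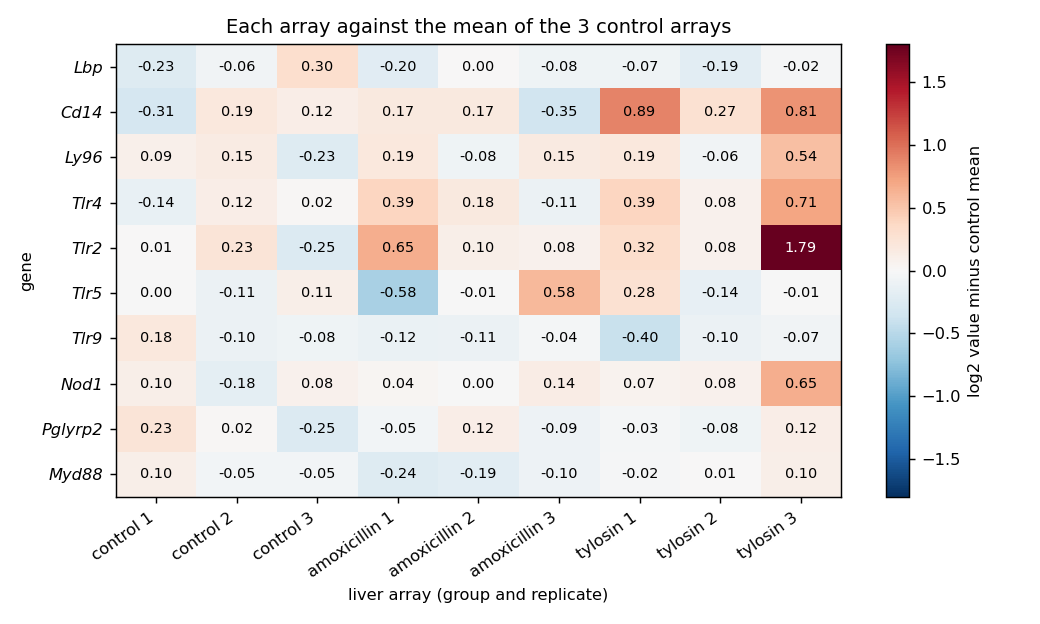
Log2 value of each gene (rows) in each array (columns) minus the mean of the 3 control arrays, with red above and blue below. Tylosin replicate 3 holds the darkest cell, Tlr2 at 1.79, and the 3 tylosin cells of Cd14 are 0.89, 0.27 and 0.81.

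The genes varied together in part. Over 9 arrays, Ly96 and Tlr2 had a Pearson correlation of 0.89, Tlr4 and Tlr2 0.87, and Cd14 and Tlr4 0.86, the 3 highest of 45 pairs. Without tylosin replicate 3 these were 0.76, 0.74 and 0.82 over 8 arrays, whereas Tlr2 and Nod1 went from 0.79 to -0.24. The lowest pair was Cd14 and Tlr9, at -0.73, and at -0.91 without that array. Tlr2, Tlr4 and Tlr9 were dim, and Tlr4 was read at the probe set that its other probe sets did not follow. These correlations share the arrays and their normalization and are given as a description.

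Among 7726 other genes that were not dim, the nearest in pattern to Cd14 were Lgmn (r = 0.92), a lysosomal protease, Nras (0.91), a small GTPase, and Txndc9 (0.91). For Lbp they were Dgcr2 (0.92), Ccdc91 (0.91) and Lcmt2 (0.91), and for Ly96 they were Exoc4 (0.97), Mtmr2 (0.95) and Mcur1 (0.94). Nod1 was nearest to Ddx47 (0.97), Ensa (0.97) and Dop1b (0.94). Pglyrp2 was nearest to Igfbp7 (0.91), Usp5 (0.91) and Dtd1 (0.90), and Myd88 to Dgka (0.98), Sult2a2 (0.97) and Gde1 (0.92). With this many candidates and 9 arrays, correlations of this size are a description and carry no test.

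The rest of the pathway was read in 5 lists of 118 genes, chosen with earlier results of these data known. Of the 118 genes, 102 were measured. Of these, 13 of 20 receptors, 2 of 19 adaptors and kinases and 4 of 13 transcription factors were dim. So were 9 of 22 inhibitors and 15 of 28 targets, and values of dim genes carry more array background. Over all genes, tylosin arrays were all above control arrays in 8.21% and all above amoxicillin arrays in 3.58%. Amoxicillin arrays were all above control arrays in 9.52%. Among 20 other pattern recognition receptors, 0 were called with amoxicillin against control, and 1 was called higher with tylosin against control, beside 1.28% of all genes called in either direction and 1.01% called higher. That gene was Msr1, a macrophage scavenger receptor that binds LPS and lipoteichoic acid. It was at 6.75, 6.81 and 6.37 in control replicates 1 to 3, 7.21, 6.96 and 6.89 with amoxicillin, and 7.39, 6.98 and 7.38 with tylosin. Both antibiotic groups were above all controls, with a log2 fold change of 0.61 with tylosin (SE 0.15, adjusted p = 0.19 by limma) and 0.37 with amoxicillin (SE 0.15, not called), the smallest P of this list there. The tylosin call was lost without control replicate 3, tylosin replicate 1 or tylosin replicate 3, and with the mean of all Msr1 probe sets, which gave 0.12. The amoxicillin value was 0.24 without control replicate 3 and 0.035 with that mean. Between the antibiotics 0 of 20 were called, beside 0.0933% of all probe sets. The smallest P there was that of Clec7a, the beta-glucan receptor dectin-1 (0.47, SE 0.20). It was 0.30 without tylosin replicate 1, and 0.70 and called without tylosin replicate 3.

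Of 19 adaptors and kinases, 0 were called in any comparison. Over all probe sets, 1.35% were called with amoxicillin, 1.42% with tylosin and 0.0933% between the antibiotics. Ticam2, Irak4, Traf3, Ripk1, Ripk2 and Chuk had no probe set named here and were not read. Tbk1, a kinase upstream of Irf3, had the smallest P against control with both antibiotics, with log2 fold changes of 0.31 after amoxicillin (SE 0.09, adjusted p = 0.23 by limma) and 0.29 after tylosin (SE 0.09, adjusted p = 0.22 by limma), both under the fold threshold. Its log2 level was 8.23 to 8.45 in controls and 8.62 to 8.73 in the 6 antibiotic arrays, so both antibiotic groups were above all controls. Between the antibiotics, Ikbkg, the regulatory subunit of the IKK complex, had the smallest P (0.27, SE 0.13).

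Of 13 transcription factors, 0 were called in any comparison, beside the same 1.35%, 1.42% and 0.0933% of all probe sets. Nfkb1 had no probe set named here and was not read. Fos, an immediate early factor, had the smallest P with tylosin against control (0.83, SE 0.29, adjusted p = 0.25 by limma) and against amoxicillin (0.80, adjusted p = 1 by limma). It was at 5.27 to 5.79 in controls, 4.97 to 6.33 after amoxicillin and 6.18 to 6.62 after tylosin. The tylosin arrays thus lay above all controls but overlapped amoxicillin. Fos became a call against control, at the same 0.83, without amoxicillin replicate 1, without amoxicillin replicate 3 or with only the 2 groups fitted. Against amoxicillin it was 1.19 and called without amoxicillin replicate 1, 0.89 and called with array weights, and 0.51 without amoxicillin replicate 3. Without both amoxicillin replicate 1 and tylosin replicate 2, Fos was called in each, at 0.88 and 1.24. Irf7, an interferon regulatory factor, had the smallest P with amoxicillin against control (-0.24, SE 0.12).

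Among 22 inhibitors and genes of LPS disposal, 2 were called higher with tylosin against control, beside 1.01% of all genes. With amoxicillin against control 0 were called, beside 1.28% of all genes in either direction. With tylosin against amoxicillin 1 was called higher, beside 0.0715% of all genes. Nfkbia, the inhibitor that holds NF-kappaB in the cytoplasm and is itself induced by it, was at 10.79, 10.41 and 10.74 in control replicates 1 to 3, 11.18, 10.95 and 10.84 with amoxicillin, and 11.03, 11.41 and 11.14 with tylosin. Both antibiotic groups were above all controls, by 0.55 with tylosin (SE 0.14, adjusted p = 0.19 by limma) and 0.35 with amoxicillin (SE 0.14, not called). Dusp1, a phosphatase of MAP kinases, was at 8.82, 8.57 and 9.02, then 9.20, 8.51 and 8.75, and 9.38, 9.77 and 9.29 in the same order of groups. All tylosin arrays were above the others, by 0.68 against control (adjusted p = 0.20 by limma) and 0.66 against amoxicillin (adjusted p = 1 by limma). With amoxicillin against control, the smallest P was that of Lrp1, an endocytic receptor (0.31, SE 0.12).

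These calls also hung on single arrays. Nfkbia lost its call without control replicate 2 or tylosin replicate 2 (0.44 without the latter), and with the mean of its probe sets (0.28). Dusp1 lost its call against control without control replicate 1, control replicate 2 or tylosin replicate 2, and against amoxicillin without amoxicillin replicate 2 or 3 or tylosin replicate 1 or 2. Without tylosin replicate 2, Dusp1 was at 0.54 against control and 0.52 against amoxicillin. Tylosin replicate 2 was the highest array for both genes, and it also had high intestinal markers. Amoxicillin replicate 1, with the higher mean of these markers, was at 11.18 for Nfkbia and 9.20 for Dusp1. The part of these markers in the values of the 2 genes was not tested.

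Of 28 inflammatory targets, 1 was called lower with amoxicillin against control, beside 0.445% of all genes called lower. With tylosin against control 1 was called higher, beside 1.01% of all genes. Between the antibiotics 0 were called, beside 0.0933% of all probe sets. Vcam1, an adhesion molecule of activated endothelium, was at 7.32, 6.45 and 7.23 in control replicates 1 to 3, 7.20, 6.995 and 7.53 with amoxicillin, and 7.99, 7.78 and 7.49 with tylosin. All tylosin arrays were above all controls, by 0.76 (SE 0.23, adjusted p = 0.22 by limma), but overlapped the amoxicillin arrays. The call was lost without control replicate 2 (0.48), amoxicillin replicate 1, tylosin replicate 1 or tylosin replicate 2. The call with amoxicillin was Il12b, a dim cytokine gene at 2.58 to 3.53 in all arrays (-0.52, adjusted p = 0.25 by limma), which was lost in 6 of 9 fits without 1 array. Ccl5, a chemokine, had the smallest P between the antibiotics (0.48, SE 0.16), and was called at 0.57 without tylosin replicate 1.

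The lists' medians with tylosin against control were 0.08 for receptors, 0.13 for adaptors and kinases, 0.17 for transcription factors, 0.09 for inhibitors and 0.06 for targets, beside -0.01 over all genes. With amoxicillin they were 0.05, 0.03, 0.05, 0.03 and -0.04, beside -0.03, and between the antibiotics they were 0.13, 0.03, 0.11, 0.06 and 0.14, beside 0.01. Tylosin replicate 3 was the highest array for 32 of the 102 genes (31.4%), beside 12.9% of all genes, and for 8 of the 13 transcription factors. Of these 8, Relb, Irf5 and Atf3 were dim. Single genes stood further apart in tylosin replicate 3. Tlr1, the partner of Tlr2, was dim, and was at 6.38 there against 3.20 to 3.98 in the others. Icam1, an adhesion molecule, was at 7.66 against 5.68 to 6.47. The acute phase gene Saa3 was at 9.79 there, against 6.55 to 7.98. These genes were chosen after their values were seen.

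**Figure D4:**
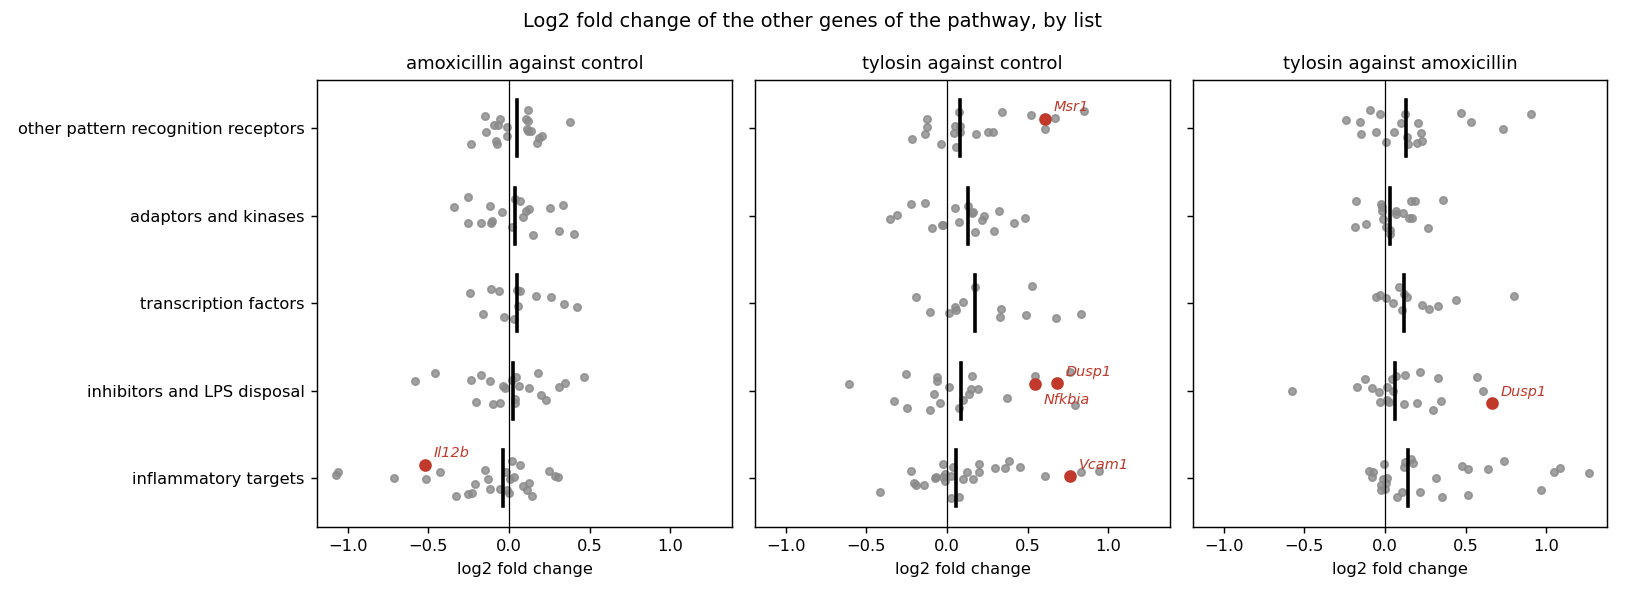
Log2 fold change of each of the 102 other pathway genes (points, 1 row per list, with vertical jitter) in the 3 comparisons, with the list median as a black bar and called genes named in red. With tylosin against control the 4 called genes are Msr1, Nfkbia, Dusp1 and Vcam1, all above 0, and most points lie between -0.5 and 0.5.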

How the data were processed

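Liver RNA was hybridized to Affymetrix mouse expression arrays, 1 per sample, and the authors normalized them with RMA in the affy package before deposit. The sources used here do not give the versions. The deposited values are log2 expression, between 2.00 and 14.71, and no pair of arrays was identical. Only these values were used.

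Of 45101 probe sets, 64 manufacturer's controls were left out. In the platform annotation 34958 carry 1 gene symbol, 932 several and 9211 none. A gene was read at its brightest probe set among those with 1 symbol. The test was limma 3.58.1 (R 4.3.3), in 1 fit to the 9 arrays. As in the study's methods, a call needed an absolute log2 fold change over 0.5 with P under 0.01 before adjustment, and p-values were adjusted by Benjamini-Hochberg over 45037 probe sets. Intervals are at 95%. With 3 arrays per group, the number of arrays limits the precision. The fit was tested on simulated data. Probe sets were not filtered on level, and 28.4% were not dim.

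The 10 genes and all lists were chosen with earlier results of these data known. Named were all 10 genes, the called genes of each list (or the 1 with the smallest P where none was called) and the 3 genes nearest in pattern to each gene that was not dim. Of 118 list genes, 16 had no probe set named here and were not analysed here. Replicate numbers were not taken to pair the samples. Alternatives were other thresholds, filters, scalings, variance models, probe set rules, a replicate block and arrays left out. Python 3.11.15 with matplotlib 3.10.9 drew the figures.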

Additional observations from a re-analysis of the deposited data

Results flagged for a closer look

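Cd14 met the thresholds of a call between the antibiotics. Tylosin against amoxicillin gave a log2 fold change of 0.658 (SE 0.20, adjusted p = 1 by limma), with all 3 tylosin arrays above all 3 amoxicillin arrays. The difference was tested directly, as a contrast of the 2 antibiotic groups, and it did not pass the adjustment over 45037 probe sets. The call was lost in 5 of 9 fits that left out 1 array, with the filter on dim probe sets, with only the 2 groups fitted and with a replicate block, among the settings tried. No other of the 10 genes met a rule for a closer look.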

How the results depend on the processing

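The values of the 10 genes and of the called pathway genes were counted under alternatives at the same thresholds, apart from fits without 1 array. Of these values, 307 kept direction and side of the thresholds, 22 lost a call, 1 gained one and 17 changed sign. At an adjusted p under 0.05 or a log2 fold change over 1, which the count leaves out, every call of these genes was lost. Within the count, the lost calls were those of Cd14 (7), Il12b (6), Vcam1 (5), Nfkbia (2), Msr1 (1) and Dusp1 (1). The gained one was that of Tlr4 with tylosin against control. Among the named pathway genes below the thresholds, Fos gained calls under these alternatives, against control (0.83 with the 2 groups alone, 0.88 without amoxicillin replicate 1 and tylosin replicate 2) and against amoxicillin (0.89 with array weights, 1.24 without that pair). The cause was not tested.

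For the 10 genes, calls with tylosin against control went from 1 to 0 at an adjusted p under 0.05, at a log2 fold change over 1, with a filter on dim probe sets, with quantile normalization, with array weights and with a replicate block, and to 2 (Cd14 and Tlr4) without amoxicillin replicate 1 and tylosin replicate 2. Between the antibiotics they went from 1 to 0 at the adjusted p, at a log2 fold change over 1, with the dim filter, with the 2 groups alone and with the block. Leaving out 1 array gave 0 to 2 and 0 to 1 calls, and 0 to 0 for amoxicillin.

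For all probe sets, the calls (608 with amoxicillin, 638 with tylosin and 42 between the antibiotics) became 0, 0 and 0 at the adjusted p, 23, 38 and 7 at a log2 fold change over 1, and 216, 256 and 17 with the dim filter. Without amoxicillin replicate 1 and tylosin replicate 2, amoxicillin against control gave 353 and tylosin against amoxicillin 144, which was 67 with array weights. Single arrays left out gave 397 to 928 (fewest without amoxicillin replicate 1, most without control replicate 2), 470 to 1556 (most without tylosin replicate 3) and 36 to 137 (most without tylosin replicate 1). The mean of all probe sets of a gene gives no count over probe sets. Of the calls, 73.5%, 73.0% and 59.5% were higher, which became 89.3%, 88.9% and 57.8% with median centring and 64.1%, 60.2% and 57.5% with quantile normalization.

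Replicate numbers did not pair the samples: 2 of 9 pairs of the same number had correlated deviations over 0.1, and only 3 of 9 arrays correlated best with their own number. With the replicate block, Cd14 was no longer called, at an unchanged 0.66 against control and against amoxicillin, and tylosin against amoxicillin gave 69 calls over all probe sets.

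Signs that changed were all of values that were not called. With amoxicillin against control, Cd14 was 0.052 with median centring, Tlr4 -0.013 with the mean of its probe sets, Nod1 -0.029 with quantile normalization, Tlr5 0.047 with median centring, 0.11 with array weights and 0.28 without amoxicillin replicate 1 and tylosin replicate 2, and Pglyrp2 0.044 with median centring and 0.012 without that pair. With tylosin against control, quantile normalization gave Tlr5 -0.034, Pglyrp2 -0.037 and Myd88 -0.081, and array weights gave Pglyrp2 -0.021. With tylosin against amoxicillin, Lbp was 0.019 with quantile normalization and 0.087 with the mean of its probe sets, Tlr5 -0.072 with array weights and -0.15 without that pair, and Pglyrp2 -0.015 with array weights.

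With 1 array left out, signs changed for amoxicillin against control in Lbp (-0.21 to 0.053), Cd14 (-0.15 to 0.17), Ly96 (-0.030 to 0.17), Tlr5 (-0.30 to 0.28), Tlr9 (-0.14 to 0.0013), Nod1 (-0.033 to 0.11) and Pglyrp2 (-0.14 to 0.11). For tylosin against control they changed in Lbp (-0.21 to 0.051), Tlr5 (-0.078 to 0.13), Pglyrp2 (-0.12 to 0.12) and Myd88 (-0.0058 to 0.081), and between the antibiotics in Lbp (-0.056 to 0.046), Ly96 (-0.026 to 0.28), Tlr2 (-0.080 to 0.77), Tlr5 (-0.24 to 0.34), Tlr9 (-0.16 to 0.0066) and Pglyrp2 (-0.045 to 0.076). Values of the 4 dim receptors are limited by signal over background.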
